A study of Mus musculus with 2 samples.

Results

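Far from any gene start in the GENCODE annotation, 1697 intervals of open chromatin were as accessible per kb as a typical promoter. The cells were neural progenitors sorted for Olig2 expression. The 1697 were chosen from 119502 intervals by position and by measured accessibility. An interval had to lie on an autosome, over 5 kb from every GENCODE transcription start site (TSS) of any gene type, and outside protein-coding sequence (CDS). The position rule left 69872 distal intervals, and the members were the 2.43% of these with at least 800 counts per kb, taken as the mean of the raw counts of both libraries divided by interval length. This quantity is called density here, and since it chose the members, their densities are a description without a test.

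The counts came from ATAC-seq, in which the transposase Tn5 cuts and tags accessible DNA, on live cells of the mouse embryonic stem cell line Olig2-mKate2. This line carries the red fluorescent protein mKate2 at Olig2, a gene that marks motor neuron progenitors (pMN) of the ventral neural tube. Cells were differentiated into neural progenitors (NPs) with 100 nM retinoic acid (RA) and 100 nM SAG, which switches on Sonic hedgehog (Shh) signalling, sorted at day 5 as mKate2-positive, and 50000 entered each reaction. There was 1 group of 2 replicates from 1 line, so no conditions could be compared, and nothing in the labels says whether the replicates were separate cultures. By the study's account, such a sort also holds newborn motor neurons and some cells that make both OLIG2 and NKX2.2.

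Accessible sites far from promoters include enhancers, which bind transcription factors and raise transcription of genes that may lie far away, and insulators, which bind CTCF and shape chromatin loops. Promoters usually stay open in many cell types, whereas enhancers tend to open in some cell types and stay closed in others. Accessibility alone shows neither the factor bound nor the gene controlled, and the nearest gene is used below as an address and not as a target.

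To show what such intervals look like, the central 300 bases of 5 members without a close copy elsewhere in the genome are given, on the plus strand of mm10 from the RefSeq copy of that assembly. The first 3 are high in density, and the others are the strongest members nearest to the pMN genes Olig1 and Nkx6-1. Windows over an annotated exon were left out, which removed the interval near Zfp869 described below. Capitals mark matches, on either strand, to any of 18 short motif words that are spelled out with the motif results.
chr11:55685102-55685401, near Glra1: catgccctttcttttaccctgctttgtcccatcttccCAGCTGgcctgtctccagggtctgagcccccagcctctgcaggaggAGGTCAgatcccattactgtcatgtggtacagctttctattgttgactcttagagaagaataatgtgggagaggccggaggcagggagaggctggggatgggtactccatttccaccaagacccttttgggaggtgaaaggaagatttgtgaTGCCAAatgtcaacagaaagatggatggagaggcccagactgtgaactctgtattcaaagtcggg
chr13:3730574-3730873, near Calml3: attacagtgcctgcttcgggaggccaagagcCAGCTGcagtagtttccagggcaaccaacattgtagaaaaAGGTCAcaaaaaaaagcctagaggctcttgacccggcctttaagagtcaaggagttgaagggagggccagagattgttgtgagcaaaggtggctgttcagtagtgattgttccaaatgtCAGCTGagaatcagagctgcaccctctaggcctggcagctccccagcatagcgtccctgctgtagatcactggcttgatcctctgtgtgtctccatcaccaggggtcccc
chr13:47273493-47273792, near Rnf144b: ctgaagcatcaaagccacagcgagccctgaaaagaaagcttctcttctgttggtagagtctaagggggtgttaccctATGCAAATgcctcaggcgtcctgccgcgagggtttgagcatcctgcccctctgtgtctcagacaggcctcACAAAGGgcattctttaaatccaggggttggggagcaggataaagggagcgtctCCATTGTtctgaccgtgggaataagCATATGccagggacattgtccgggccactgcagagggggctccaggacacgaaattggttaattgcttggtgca
chr16:91301384-91301683, near Olig1: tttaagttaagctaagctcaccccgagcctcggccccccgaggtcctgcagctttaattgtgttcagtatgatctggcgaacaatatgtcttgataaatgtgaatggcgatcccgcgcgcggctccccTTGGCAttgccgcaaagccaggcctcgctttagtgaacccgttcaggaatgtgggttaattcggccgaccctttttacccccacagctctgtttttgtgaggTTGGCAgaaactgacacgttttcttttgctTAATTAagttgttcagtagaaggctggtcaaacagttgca
chr5:101521099-101521398, near Nkx6-1: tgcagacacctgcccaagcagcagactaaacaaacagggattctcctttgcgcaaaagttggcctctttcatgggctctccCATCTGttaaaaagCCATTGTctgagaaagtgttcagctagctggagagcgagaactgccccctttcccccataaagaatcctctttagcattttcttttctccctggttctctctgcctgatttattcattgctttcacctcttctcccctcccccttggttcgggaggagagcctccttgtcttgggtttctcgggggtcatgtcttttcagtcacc

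The marked words differed between the windows. The Glra1 window held the E-box CAGCTG, a nuclear receptor word and an NFI word, at positions 38, 84 and 236 counted from its first base. In the Calml3 window the same E-box occurred at positions 32 and 191. The Rnf144b window held the POU octamer at position 78, SOX words at 148 and 202 and the E-box CATATG at 227. A SOX word stood at position 96 of the Nkx6-1 window, and the Olig1 window held none but had the homeodomain word at 261. GC content ranged from 49.7% in the Olig1 and Nkx6-1 windows to 53.7% in the Rnf144b window.

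Replicate 1 held 31876165 counts in all intervals and replicate 2 held 31672240. Members took up 3.96% of the length of the distal intervals (1.56 Mb) and 22.2% of the counts in distal intervals in each library, or 5.88% and 6.05% of all counts. The median member was 886 bp long, between 142 and 3346 bp, with 989 counts in replicate 1 and 1017 in replicate 2. A mean count under 500 was found for 169 members (9.96%).

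The members were chosen on the mean of both libraries, so high shares above the limit in each follow in large part from the rule. With replicate 1 alone 1622 of the 1697 members stayed at 800 counts per kb or more, with replicate 2 alone 1665 did, and 1590 did so in both. Chosen by 1 library instead, 1648 intervals passed in replicate 1 and 1717 in replicate 2. After division by size factors, the SD of the log2 ratio of replicate 2 to replicate 1 was 0.08 over members, against 0.16 over distal intervals under the limit and 0.09 over promoter intervals, the last 2 restricted to a mean normalised count over 100. All members passed that restriction, with more counts than most distal intervals under the limit, and fewer counts give a wider ratio. The median log2 ratio of members was 0.03, and 1097 (64.6%) were higher in replicate 2, as were 47.8% of all intervals above the same count.

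Each interval's pair of counts was compared by an exact binomial test, two-sided and adjusted by Benjamini-Hochberg over 119502 intervals, and 0 members and 0% of all intervals passed an adjusted p of 0.01. The lowest adjusted p of a member was 0.0178. At an unadjusted p under 0.05 there were 228 members (13.4%), against 8.39% of all intervals, which have fewer counts. Only 3 members (0.177%) were over 25% apart, taking the higher normalised count over the lower, against 3.67% of the 46361 intervals that averaged over 100 normalised counts. Those intervals reach down to 100 counts, whereas the median member held 989 and 1017, and fewer counts give wider fold differences. The binomial test compares libraries and takes counting error as its only source of noise, so its p-values do not include a spread between cultures.

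The 3 members furthest apart differed by up to 1.31-fold. An intergenic interval 240 kb from Cntnap4 had 295 counts in replicate 1 and 388 in replicate 2. In an intron of Dst, an interval had 371 and 467 counts, and an intergenic interval nearest to Olfr1423 had 464 and 371. They differed in direction and stood among the shorter members, at 388, 446 and 455 bp.

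**Figure D1:**
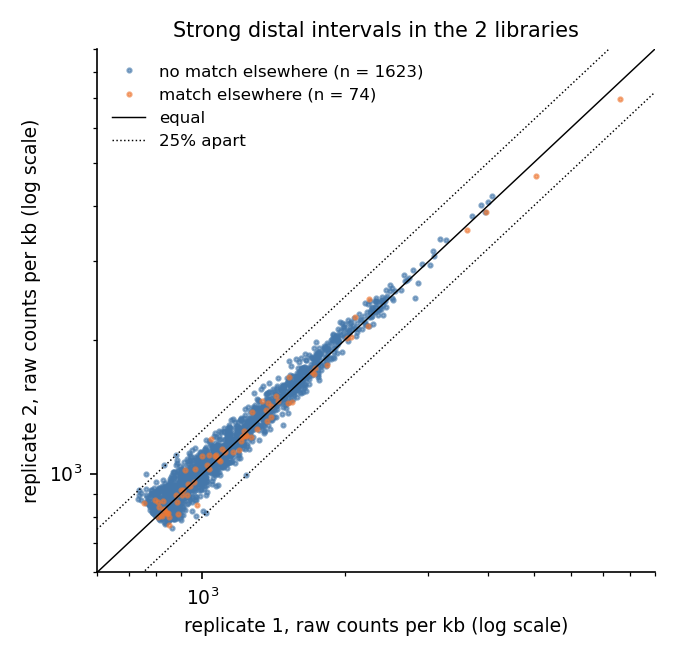
Density of each of the 1697 members in replicate 1 (x axis) and replicate 2 (y axis), in raw counts per kb on log scales. Points lie close to the line of equality, 3 differ by over 25% after scaling, and the members with a copy elsewhere in the genome (orange) include the highest points.

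To place the limit on the scale of promoters, 15727 autosomal intervals that overlap the TSS of a protein-coding gene were taken as promoter intervals. Where the promoter of a gene is given a density, all such intervals over any of its annotated starts were pooled, as summed counts over summed length. That value need not be the density at the main start. The median density of promoter intervals was 756 ± 17.04 counts per kb (SD, n = 2), and 7449 (47.4%) reached 800. The median member had 1072 ± 17.05 (SD, n = 2), above that of promoters by construction, and the median of all distal intervals was 120.4 ± 2.37 (SD, n = 2). Density divides by length, and the median promoter interval was 1188 bp long, against 886 bp for members. Median counts of promoter intervals in replicates 1 and 2 were 990 and 958, against 989 and 1017 for members. Members thinned out quickly above the limit: 1011 (59.6%) reached 1000 counts per kb and 111 (6.54%) reached 2000. A further 1195 distal intervals lay between 600 and 800, and no gap separated them from the members.

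The values next to the limit show how fine the division was. Just inside it were an intergenic interval near Chd7 with 586 and 607 counts (802 counts per kb), an intron of Cdh2 with 648 and 694 (802), and an intergenic interval near Gm9844 with 477 and 464 (802). Just outside was an interval 10.4 kb from Mnx1, the homeobox gene of motor neurons, with 865 and 810 counts (799.9 counts per kb). The next, near Gm21962 and Sdhaf1, had 799.7 each. In each of these 6 intervals 1 library lay above 800 and the other below.

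**Figure D2:**
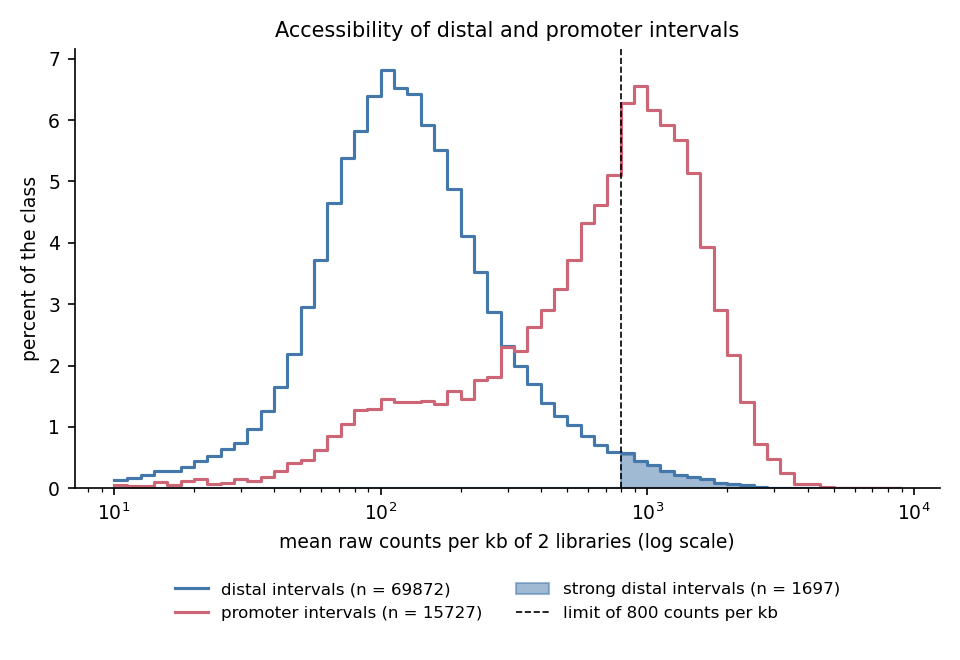
Distribution of density (x axis, mean raw counts per kb of 2 libraries, log scale) over the 69872 distal intervals and the 15727 promoter intervals, as a percent of each class (y axis). The shaded tail to the right of the dashed limit of 800 holds the 1697 members, while promoters peak near that limit.

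Copied sequence was common among the very highest densities. Of the 10 highest, 4 matched another place in the genome over a length of 100 bp or more with an identity of at least 90%, and 5 of the highest 50 did, against 74 (4.36%) of all members and 55 of the 1195 between 600 and 800. Reads from such sequence may be placed at 1 of several copies, and their placement was not tested. The highest member, chr9:123461798-123462187, lay in an exon of Lars2, which encodes the mitochondrial leucyl-tRNA synthetase, and had 2969 and 2717 counts, or 7289.7 ± 457 counts per kb (SD, n = 2). It matched 236 bp of chromosome 12 at 98.3% identity. The other copied intervals among the highest 10 were near Gm8797 with 4859 ± 271, near Igf2bp3 with 3922 ± 59.6 and in an intron of Gphn with 3573 ± 64.5 (SD, n = 2 each). No member matched the mitochondrial genome by the same limits of length and identity, and shorter matches were not counted. A copy that covered at least 50% of the interval at 95% identity was found for 12 members (0.707%).

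Among members without such a match, the highest was chr8:69716405-69717412 with 4125 and 4243 counts, or 4151 ± 82.8 counts per kb (SD, n = 2). The annotation of the rule (GENCODE) has no gene there and its nearest protein-coding TSS is that of Zfp869 at 6.18 kb, but RefSeq places a predicted start of Zfp869 inside the interval. The interval thus met the rule in one annotation and overlapped a gene start in another. Its centre was rich in CpG, with a GC content of 57.3%.

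The next members were clearly distant from any start. An intergenic interval at chr11:55684885-55685618, 77.1 kb from the glycine receptor gene Glra1, had 2945 and 2998 counts, or 4048 ± 51.1 counts per kb (SD, n = 2). At chr13:3730315-3731132, 73.3 kb from the calmodulin-like gene Calml3, there were 3167 and 3287 counts, or 3945 ± 103.7 counts per kb (SD, n = 2). The libraries differed by less than 1.04-fold in both, and the nearest promoters were weak: Glra1 had 304 counts per kb, and no interval overlapped the TSS of Calml3.

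The interval near Rnf144b, which encodes a ubiquitin ligase, had 2038 and 2007 counts, or 3912 ± 42.4 counts per kb (SD, n = 2), at chr13:47273384-47273900. Introns held the next 2, at chr4:140624497-140625374 in Arhgef10l, which encodes a guanine nucleotide exchange factor, with 3743 ± 63.6, and at chr19:55556245-55557158 in Vti1a, a SNARE gene, with 3307 ± 65.0 counts per kb (SD, n = 2 each). The last 4 of the 10 lay near Frmd4b, in an intron of Nrg1, which encodes the growth factor neuregulin 1, in an intron of Hhipl1 with Cyp46a1 nearest, and near Atf7ip, with 2987 to 3273 counts per kb. At the Cyp46a1 interval the libraries gave 3239 and 3238 counts.

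Since the members were defined by 1 annotation, RefSeq was searched for starts that GENCODE lacks. A RefSeq TSS lay within 1 kb of 109 members (6.42%), and inside 62 of them, against 2.85% of the 66980 distal intervals under 600 counts per kb, which are called weaker distal intervals below. Without these 109, 1588 members remained. Of the whole set, 799 members (47.1%) were in introns, 858 (50.6%) were intergenic and 40 (2.36%) touched an exon outside CDS, of which 18 touched a UTR. Weaker distal intervals had 48.6% in introns and 48.8% between genes. Position therefore differed little, and the distances did not differ much either: the median distance from the interval centre to the nearest protein-coding TSS was 39.1 kb for members and 38.7 kb for weaker intervals.

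Of the members, 1480 (87.2%) were over 10 kb from a protein-coding TSS, 442 (26.05%) over 100 kb and 50 (2.95%) over 500 kb. The median member had 8 other intervals within 50 kb, against 6 for a weaker distal interval. Another member lay within 10 kb of 288 members (17.0%).

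Sequence was not used to choose the members. The central 300 bp of members had a median GC content of 50%, against 47.3% in weaker distal intervals and 64% in promoter intervals. Windows counted as CpG rich, with GC of at least 50% and an observed to expected CpG ratio of at least 0.6, made up 131 members (7.72%), 4.18% of the intervals between 600 and 800, 1.02% of weaker distal intervals and 65.5% of promoter intervals. Members were thus mostly unlike promoters in base composition. The 131 CpG-rich members were nearer to genes, with a median distance of 23.0 kb against 42.1 kb for the others, and 21 of them (16.03%) had a RefSeq TSS within 1 kb, against 88 (5.62%) of the others. Their median density was 1204 counts per kb, against 1063. Repeat masking covered a median of 9.23% of a member, and over 50% of only 11 members (0.648%), against 4.73% of weaker distal intervals.

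Short words known from transcription factor motifs were then counted on both strands of the central window. SOX proteins, HMG-box factors of neural progenitors, bind sites like ACAANGG (N stands for any base). This word was in 595 member windows (35.1%), in 33.2% of the intervals between 600 and 800, in 25.7% of weaker distal intervals and in 11.2% of promoter intervals. Among windows that were not CpG rich the shares were 37.1% in members and 25.9% in weaker intervals. Many weaker intervals were shorter than the window, so the count was repeated for intervals of at least 300 bp, which gave 35.1% of 1640 members and 25.1% of 45804 weaker intervals. The 10768 weaker intervals at least as long as the median member held the word in 21.7% of windows. Here and below, the members set against these long intervals were cut at 300 bp only, so the lengths were not matched. Within the members the SOX word was in 33.9% of windows in the 25% of lowest density and 38.2% in the 25% of highest.

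CTCF binds insulators, and a core of its motif, CNAGNGGGC, was in 89 member windows (5.24%), against 4.75% of weaker distal intervals and 9.51% of promoter intervals. The members with and without it were alike in density, with medians of 1007 and 1075 counts per kb. Among intervals of at least 300 bp it was in 5.0% of members, against 4.76% of weaker intervals of that length and 3.41% of weaker intervals at least as long as the median member. These letters cover only part of the known motif, so a window without them may still bind the factor.

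Over all windows, words of promoter motifs were more frequent in members than in weaker intervals. The GC box GGGCGG, bound by SP factors, was in 15.6% of members, 6.83% of weaker intervals and 55.1% of promoters, and in 11.6% and 6.46% of members and weaker intervals that were not CpG rich. The ETS word CCGGAAG was in 2.65%, 1.42% and 10.5% of members, weaker intervals and promoters. In members and weaker intervals that were not CpG rich it was in 1.85% and 1.38%. The NRF1 word GCGCATGCG was in only 5 members (0.295%), against 0.088% of weaker intervals. Where windows were not CpG rich it was in 0.064% and 0.072%, the opposite direction. A CTCF core match can end in the first letters of a GC box, so these counts are not fully separate.

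Other words were counted in the same way, and the RFX word GTTGCCA was in 6.13% of members against 4.85% of weaker intervals, the TEAD word CATTCCA in 9.72% against 7.99%, and the GLI word GACCACCCA, the target of the Shh pathway, in 16 members (0.943%) against 0.485%. Against the long weaker intervals the TEAD word was in 9.82% of members of at least 300 bp and in 5.62%. The E-box CAGCTG was in 22.9% against 22.6%, the nuclear receptor word AGGTCA in 23.2% against 22.5%, and the POU octamer ATGCAAAT in 2.47% against 2.45%. Several words were less frequent in members than in all weaker intervals: the E-box CAGATG (26.0% against 30.01%), the E-box CATATG (4.48% against 6.07%), the NKX2 word TNAAGTG (13.9% against 16.8%), the NFI word TTGGCA (13.6% against 15.9%), the AP-1 word TGANTCA (8.90% against 11.3%), the FOX word TGTTTAC (4.42% against 5.10%) and the homeodomain word TAATTA (7.96% against 8.60%). Some of these depended on the cut in length, which was not the same for both classes. Against the long weaker intervals CAGATG was in 26.1% of members of at least 300 bp and in 24.6%, the opposite direction. The AP-1 word was in 8.78% and 9.07%. All shares are descriptions of sequence, not of binding.

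**Figure D3:**
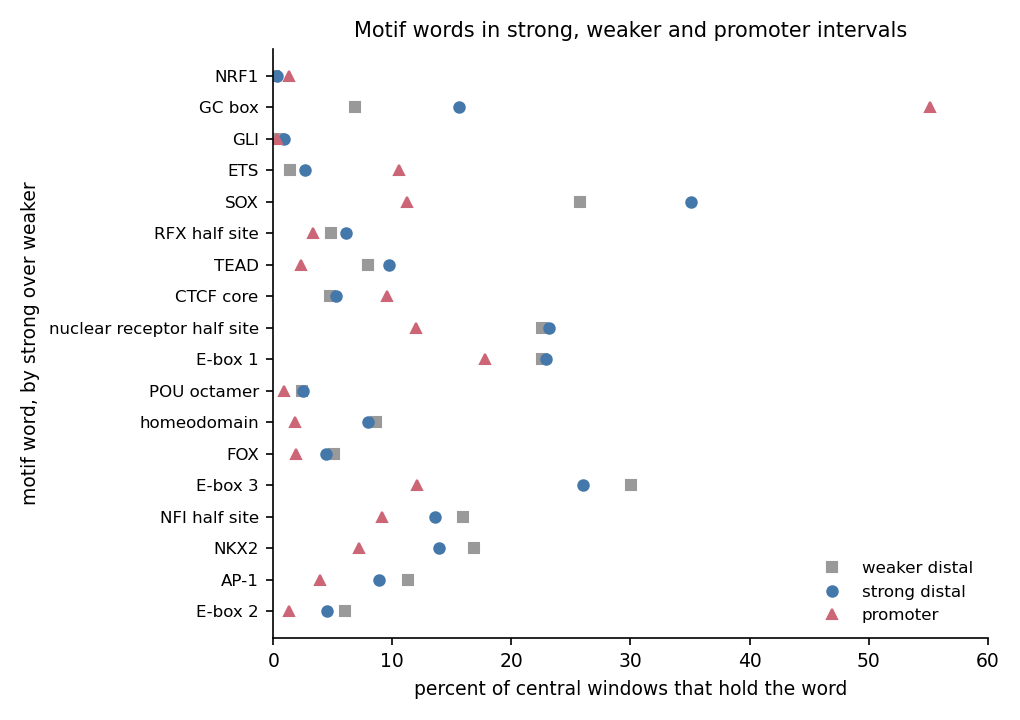
Percent of central 300 bp windows that hold each of 18 motif words (x axis) in members, weaker distal intervals and promoter intervals, ordered from the top by the ratio of members (strong) to weaker intervals (E-box 1 is CAGCTG, E-box 2 CATATG and E-box 3 CAGATG). SOX has the widest gap in percentage points, 35.1% against 25.7%, and GC box sets promoters apart at 55.1%.

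By nearest protein-coding gene, the members fell to 1216 genes, 5.85% of the 20780 autosomal protein-coding genes, out of 11195 that were nearest to any distal interval. Of these, 902 genes had 1 member, 314 had 2 or more and 13 had 5 or more. Their promoters were measured separately and were not used by the rule. A promoter interval was found for 1069 of the 1216 genes (87.9%), against 80.1% of the genes nearest to weaker distal intervals and 69.5% of all autosomal protein-coding genes. With genes that had none counted as 0, the median promoter density was 747 ± 15.2 counts per kb for genes nearest to members, 643 ± 13.03 for genes nearest to weaker intervals and 525 for all genes (SD, n = 2). Where the nearest gene had a promoter interval, 1084 of 1510 members (71.8%) were denser than it, a share that follows in large part from the limit of 800. Of the 730 members in the body of a protein-coding gene, 68 (9.32%) were nearest to the start of another gene.

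Gse1, which encodes a protein found with the CoREST corepressor, had the most members, with 16 of the 61 distal intervals nearest to it. All 16 were in its introns, between 16.4 and 113.6 kb from a start, with densities from 807 to 2073 counts per kb and a promoter of 1186 ± 7.17 (SD, n = 2). The strongest, at chr8:120421614-120422246, held 1247 and 1378 counts in the libraries. Only 5 of the 16 were denser than the promoter of Gse1, and the other 11 had at most 1013 counts per kb.

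Gse1 lies on chromosome 8, where promoters had a median density of 1039 counts per kb against 692 to 839 on the other autosomes. Members made up 3.08% of the distal intervals of that chromosome (160 of 5196), against 1.94% on chromosome 16 to 2.75% on chromosome 6, and 2.38% over the other autosomes together. The median density of its distal intervals, 124.4 counts per kb, lay within the range of the others. What the chromosome adds to the counts of its members was not tested. They include members at Gse1, Tox3, Irx3, Irx5, Sox1, Hhip, Nrg1 and Zfp869.

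Rybp, a subunit of a variant Polycomb repressive complex, had 7 members among 68 distal intervals, all intergenic. The strongest, at chr6:100203250-100204140 and 29.4 kb from the start, had 2374 and 2491 counts, or 2730 ± 92.9 counts per kb (SD, n = 2), above the promoter at 1733 ± 65.6. 2 others reached 1898 ± 76.1 and 1814 ± 4.76 counts per kb (SD, n = 2 each), and the other 4 stayed between 938 and 1038.

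Plxna2, a semaphorin receptor gene, had 7 members of 51, with 4 in introns and 3 as far as 584 kb away. The strongest was intronic at chr1:194629043-194629862, with 1359 and 1479 counts, or 1730 ± 103.5 counts per kb (SD, n = 2), against 891 ± 11.0 at the promoter. Ssbp3, a gene for a cofactor of LIM homeodomain complexes, had 7 of only 16 distal intervals (43.75%). Its strongest member, intronic at chr4:106986167-106986993, had 1580 and 1685 counts, or 1974 ± 89.8 counts per kb (SD, n = 2), against a promoter of 481 ± 6.46. Since that promoter is below the limit of 800, every member near Ssbp3 is above it by the rule.

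Nkx6-1, the homeodomain factor shared by ventral progenitors, had 7 members of 28, all intergenic, from 8.63 to 368 kb from its start. Their counts in replicates 1 and 2 were, from the lowest coordinate, 1338 and 1320, 1404 and 1441, 1317 and 1347, 772 and 849, 1405 and 1427, 1427 and 1416, and 515 and 541. The fourth to sixth lay side by side, between chr5:101518825 and chr5:101525006, and a RefSeq TSS was within 1 kb of the seventh. Densities ran from 828 ± 28.8 to 1487 ± 16.3 counts per kb (SD, n = 2 each), and only the highest exceeded the promoter, which had 1452 ± 26.4.

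Zfp608, a zinc finger gene, had 7 members of 97, the strongest at 1569 ± 30.4 counts per kb, against a promoter of 476 ± 31.1 (SD, n = 2 each). A RefSeq TSS lay in that interval. Tox3, an HMG-box gene on chromosome 8, had 6 of 51, all intergenic and 93.0 to 524 kb away. Its strongest, at chr8:89823052-89824232, had 3318 and 2936 counts, or 2648 ± 229 counts per kb (SD, n = 2), against 759 ± 49.99 at the promoter. The last of the 8 genes, Nnmt, had 5 of 17, but no interval overlapped its TSS, and 3 of the 5 lay in introns of its neighbour Zbtb16. Here the nearest start and the gene that holds the interval were different.

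**Figure D4:**
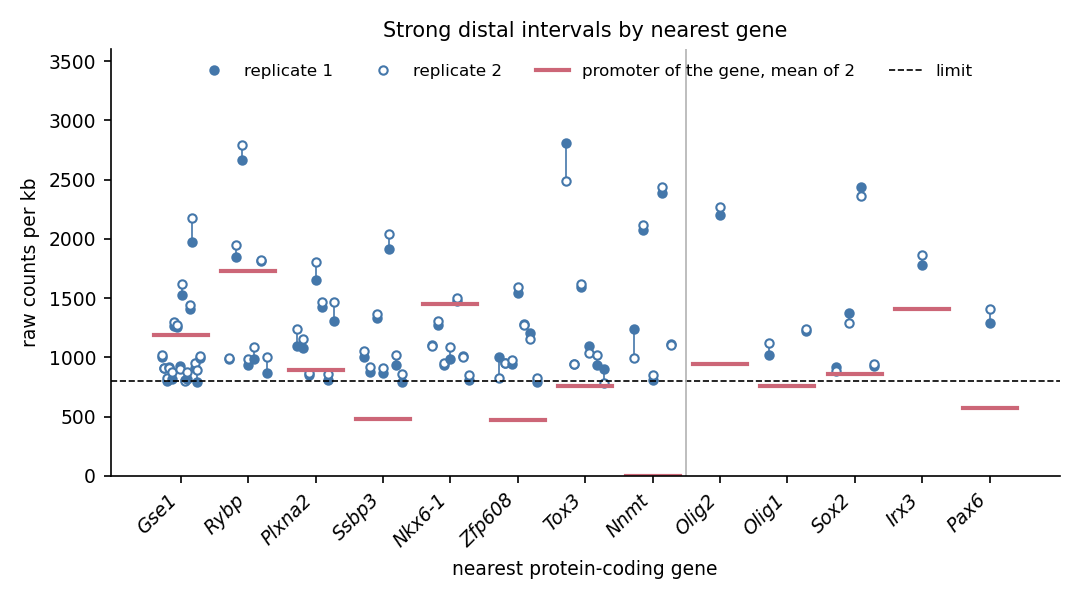
Density in raw counts per kb (y axis) of each member in replicate 1 (filled) and replicate 2 (open), by nearest protein-coding gene, for the 8 genes with the most members and, right of the grey line, the other genes of the pMN list. Red bars are the mean promoter density of each gene and are at 0 for Nnmt, which has no promoter interval; a bar under the dashed limit, as for Ssbp3, lies below the mean of every member because the limit chose the members.

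Genes of 15 lists of the tissue were then examined, with 246 genes in all. Of the 2184 distal intervals nearest to them, 115 (5.27%) were members, against 2.43% over all genes. Of these 115, 8 had a RefSeq TSS within 1 kb, 2 a copy elsewhere, and 52 were in introns. Lists differ in gene size and in distance to neighbours, and the counts are descriptions. As a coarse check of the label, promoter densities were compared, with genes without a promoter interval counted as 0 in each median. All 7 genes of the pMN list had one, with a median of 862 counts per kb. So did 4 of 8 pluripotency genes (median 119), 8 of 11 fibroblast genes (248) and 3 of 14 genes of non-neural lineages (0). Related lists had many, with 20 of 21 motor neuron and proneural genes (713) and 7 of 9 p3 and floor plate genes (588). Other progenitor domains and interneurons had 19 of 22 (401). The pMN list also holds genes of other domains, such as Irx3, so the check does not tell pMN cells from their neighbours.

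The pMN and ventral progenitor list stood highest, with 16 members of 140 distal intervals (11.4%) at 6 of its 7 genes, Nkx6-2 being without one. Most of the 16 were at 2 genes, with 7 nearest to Nkx6-1 and 4 nearest to Sox2. The member nearest to Olig2, the basic helix-loop-helix (bHLH) factor that the reporter follows, was intergenic at chr16:91192332-91193821, 32.4 kb from its start, with 3276 and 3377 counts, or 2233 ± 47.9 counts per kb (SD, n = 2). Its promoter had 946 ± 22.7. Olig1, the adjacent bHLH gene, had 2 members, both in an intron of the lincRNA Gm15966, with 754 and 826 and with 1667 and 1687 counts. In each library the member near Olig2 was denser than the pooled promoter of Olig2, which itself lay above the density limit. The pooled promoter of Olig1 had 760 ± 25.7 counts per kb. That is below the limit that chose the members, so every member has a higher mean density by the rule.

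Sox2, an HMG-box factor of neural progenitors, had 4 members of 50. Counts in replicates 1 and 2 were 2380 and 2308 at chr3:35088236-35089211, which is 438 kb from the start, with a density of 2402 ± 52.2 counts per kb (SD, n = 2). The other 3 ranged from 905 to 1332 counts per kb, and 1 of them was in an intron of Sox2ot. Irx3, an Iroquois homeodomain factor of the adjacent p2 domain, had 1 member, with 2101 and 2198 counts, and Pax6, a paired-box factor, had 1, with 2265 and 2476. The Pax6 interval lay in an intron of the antisense RNA Pax6os1, where RefSeq places a start of Gm35946.

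The SOX family list had 25 members of 363 (6.89%) at 10 of 14 genes, including the 4 at Sox2. After the Sox2 member, its strongest were near Sox9 with 1074 and 1165 counts (2352 ± 135.2 counts per kb), near Sox13 with 3982 and 3938 (2350.1 ± 18.5) and in an intron of Sox6 with 1298 and 1230 (2229 ± 84.8; SD, n = 2 each). Sox5, Sox6 and Sox13 form the SOXD group, which acts with other SOX proteins, and all had members (2, 4 and 4). Of the SOXC genes of differentiating neurons, Sox11 had 4, with a highest density of 1568.5 ± 68.7, and Sox4 and Sox12 had 1 each. Sox1, on chromosome 8, had 1 at 1690 ± 65.1, and Sox14 had 2, the stronger at 1246 ± 119.

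In the Shh pathway 9 of 189 distal intervals (4.76%) at 7 of 17 genes were members. Among the receptors and co-receptors, Ptch1 had 1 with 937 and 957 counts (1045 ± 15.6 counts per kb), Boc 1 at 1677 ± 67.3, over a RefSeq TSS, and Gas1 1 at 871 ± 50.2. Hhip, which binds and limits the ligand, had 1 at 1045 ± 66.8. Of the transcription factors at the end of the pathway, Gli2 had 3, the strongest in an intron with 1290 and 1465 counts (1546 ± 139), and Gli3 had 1 at 970 ± 62.6 (SD, n = 2 each). Gpr161, a negative regulator, had 1 at a RefSeq start of its own.

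The Notch pathway, which keeps progenitors from differentiating, had 13 members of 199 (6.53%) at 7 of 21 genes. The ligand gene Jag1 had 2 (strongest 1243 ± 37.6 counts per kb) and the receptor gene Notch1 had 1 (913 ± 42.5). The coactivator genes Maml2 and Maml3 had 2 and 3, with intronic intervals of 2147 and 2252 counts (1770 ± 59.7 counts per kb) and of 1999 and 1916 counts (1719 ± 51.5). The target genes Hes1, Hes5 and Hey1 had 2, 1 and 2, led by a Hes1 interval 63.5 kb away with 2010 and 2066 counts (1620 ± 31.5; SD, n = 2 each). Jag1 was the only ligand gene of the list with a member, and Notch1 the only receptor gene.

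For RA, the other signal in the medium, 14 of 217 distal intervals (6.45%) at 9 of 18 genes were members. The strongest, at chr3:87960621-87961140 and 8.74 kb from Crabp2, which encodes an RA binding protein, had 1482 and 1396 counts, or 2767 ± 117 counts per kb (SD, n = 2), and a RefSeq TSS lay 0.381 kb away. Both distal intervals nearest to Crabp2 were members. Among the receptors, Rarb had 3 (strongest 2052 ± 17.1), Rara 1 (1473 ± 5.95) and Rxra 1 (1046 ± 1.40). The orphan receptor genes Nr2f1 and Nr2f2 had 2 each, with the strongest 737 kb and 481 kb away, at 1422 ± 55.6 and 1731 ± 31.5 counts per kb (SD, n = 2 each). Dhrs3 and Crabp1, which act in retinoid handling, had 1 each.

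Genes of motor neurons and of proneural factors had 10 members of 194 (5.15%) at 6 of 21 genes. Neurog1, Neurog2 and Neurod4, proneural bHLH genes, had 1 each, between 921 and 989 counts per kb, and Ebf2 had 2, the stronger at 1696 ± 2.69. Chat, the acetylcholine synthesis enzyme of motor neurons, had 1 intronic member at 1249 ± 32.3 and no promoter interval (SD, n = 2 each). No other gene of motor neurons in the list, among them Mnx1, Isl1, Lhx3 and Slc18a3, had a member.

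The p3 and floor plate list had 5 members of 97 (5.15%), at Foxa2 (2, strongest 1279 ± 45.9 counts per kb), Nkx2-9 (2 of 4 distal intervals, 1190 ± 13.0) and Ntn1 (1, 1035 ± 36.2; SD, n = 2 each). None was nearest to Nkx2-2 or Shh. Markers of other progenitor domains and interneurons had 5 of 210 (2.38%), a share near that of all genes, at Irx5 (2), Evx1, Lmx1b and Prox1. Hox genes and their cofactors had 9 of 210 (4.29%) at 4 of 46 genes: 2 at Hoxc4, the stronger at 2376 ± 72.8 counts per kb (SD, n = 2), 3 each at the cofactor genes Meis1 and Meis2, and 1 at Pbx3. Pou, Zic, Nfi, Rfx and Tead factors had 8 of 209 (3.83%), led by Pou3f2 with 2597 and 2686 counts at its stronger member.

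The 5 other lists, of other cell types and of housekeeping genes, had small numbers of distal intervals. The neuromesodermal list had 0 of 19 distal intervals, the fibroblast list 0 of 68 and the housekeeping list 0 of 8, and the pluripotency list had 1 of 66, near Klf4 at 868 ± 17.7 counts per kb (SD, n = 2). The non-neural list had 4 of 56 (7.14%), near Gata4, Ins1, Ins2 and Ptprc, of which those near Gata4 and Ins2 had copies elsewhere. The share of that list was therefore as high as in the signalling lists, but the interval nearest to Ins1 was 513 kb from it, and Ptprc, Ins1 and Ins2 had no promoter interval. At the share of 2.43% over all genes, lists of this size would hold few members too, so nothing is read from the zeros. Members could have a nearest gene without an accessible TSS.

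**Figure D5:**
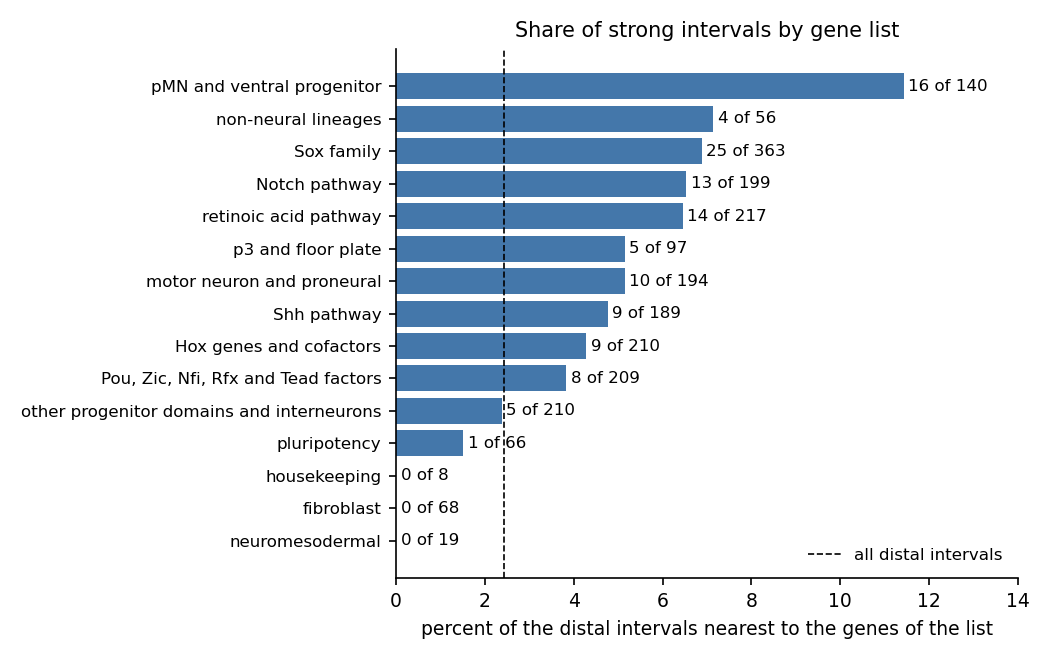
Percent of the distal intervals nearest to the genes of each list that are members (x axis), with the counts written beside each bar; the dashed line is the share over all distal intervals, 2.43%. The pMN and ventral progenitor list is highest with 16 of 140, and the neuromesodermal, fibroblast and housekeeping lists hold none.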

How the data were processed

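Per the labels and the study's methods, the authors processed the reads with the nf-core atacseq pipeline against mm10, and the deposited values are raw counts of fragments per consensus interval from featureCounts 2.0.1. The aligner is not given in the sources used here. The interval set was built over 5 libraries, so an interval need not have been called in both libraries used here, and 3 columns belong to no sample described here and were not used. Fragments carry no molecular identifiers, so counts may hold noise beyond counting error, which was not measured.

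Counts per kb were computed without scaling. Library comparisons used DESeq2 1.42.0 size factors (edgeR 4.0.16 TMM as an alternative, R 4.3.3) and a binomial test (scipy 1.17.1), tested on simulated data. Positions came from GENCODE M21, a second set of starts from RefSeq, and copies from BLAST+ 2.17.0. The rule's distance was measured from the interval edge, and distances in the text from its centre.

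Named were the 10 members of highest density, the 10 highest without a copy, the strongest member of each list gene, the 8 genes with most members, the 3 members furthest apart between libraries, and 3 intervals on each side of the limit. The other members at the 8 genes and at pMN genes were added after their values were seen. Members, lists and words were chosen with earlier results of these data known. Some list genes and 1 sequence window are not reported here.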

Additional observations from a re-analysis of the deposited data

How the results depend on the processing

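Scaling by size factors or TMM left 1697 members, and other rules of distance, gene type, coding sequence or a mean count of at least 500 gave 1295 to 2197. The following values moved by more than the spread between libraries or by over 1.5 times, and the cause was not tested. That spread (SD) was 0 for median GC and 0.0006 for the percent with a copy, so very small changes in these counted as moved. With a minimum of 600 counts per kb there were 2892 members, 4.46% with a copy, median GC 49.7%, 6.26% CpG rich, a promoter median of 730.5 counts per kb, 585 genes with 2 or more members and 187 members at list genes. With 1000 these were 1011, 4.55%, 50.7%, 8.70%, 758, 169 and 74, with 45.2% in introns, a median distance of 37.2 kb and 4.85% with the CTCF core. Over 10 kb from a TSS, 46.3% were in introns, the distance was 52.4 kb, 4.09% had a copy, GC was 49.3%, 6.33% were CpG rich and the promoter median was 746. Without copied intervals 47.9% were in introns, 7.15% were CpG rich and the promoter median was 756.

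Chosen after seeing the data, leaving out intervals within 1 kb of a RefSeq TSS gave 47.9% in introns, 4.35% with a copy, GC of 49.7%, 6.93% CpG rich and a promoter median of 756. Leaving out chromosome 8, also chosen then, gave a distance of 37.7 kb, 4.29% with a copy, 4.94% with the CTCF core and a promoter median of 739. Distance to the gene body was 7.35 kb, copies over 50% of the interval at 95% identity were in 0.707%, the CTCF core in the central 200 bp was in 3.77%, GC over whole intervals was 49.4%, and 0 members were over 1.5-fold apart. With 1 library at a time, 46.7% to 47.2% were in introns, 4.37% had a copy in either, and 7.57% to 8.19% were CpG rich. The spread between libraries was itself taken from these single-library values. The count test gave 0 calls at an adjusted p of 0.01 under each scaling tried. No paired analysis was possible because both libraries belong to 1 group. Members under 500 counts on average (169) have the least precise densities.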

Other observations

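The X chromosome was outside the rule. By the same limits of position and density it held 25 strong intervals among 1632 distal ones (1.53%), nearest to 21 genes. The strongest, at chrX:75673754-75674651 and 96.0 kb from Rab39b, a Rab GTPase gene, had 1629 counts in replicate 1 and 1769 in replicate 2, or 1892 ± 110.2 counts per kb (SD, n = 2). The next were near Eif2s3x, a translation initiation factor gene, with 1772 ± 137 and near Las1l, a ribosome biogenesis gene, with 1644 ± 105.4 counts per kb (SD, n = 2 each).

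On the autosomes, 7 members (0.412%) were over 1 Mb from any protein-coding TSS, against 0.823% of weaker distal intervals. They were named after their values were seen. The farthest was 1802 kb from Pik3c3, a phosphoinositide kinase gene, with 956 ± 8.37 counts per kb, and 2 were 1542 and 1317 kb from Efnb2, which encodes ephrin B2. The densest had 1049 and 1055 counts, or 1451 ± 5.85 counts per kb (SD, n = 2), with 1700009N14Rik as the nearest gene at 1079 kb, and it matched 111 bp of chromosome 14 at 91.9% identity. The member 1102 kb from Cdh8, a cadherin gene, was masked as repeat over its whole length and matched the Y chromosome.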
